A study of Mus musculus with 8 samples.

Results

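The regions described here are the open chromatin regions of mouse bone marrow progenitors that lie at microRNA genes. A region was taken when its centre lay within 5 kb of the extent of a gene whose RefSeq symbol is Mir or Mirlet followed by a number, with host genes ending in hg left out. Of 160978 regions in the authors' deposited table, 1157 met this rule, at 721 of 1180 microRNA genes. The other 459 microRNA genes had no region that close. The rule used position alone, so accessibility had no part in the choice.

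ATAC-seq reads open chromatin through a transposase that inserts sequencing tags into accessible DNA. Cells were sorted from the marrow of femurs, tibiae, pelvic bones and spines for cKit and against lymphoid and erythroid markers, a gate for hematopoietic stem and progenitor cells, after red cells were lysed. The labels give 4 libraries from mice with acute myeloid leukemia (AML). Of these, 2 were URE-delta/+;Tet2-/- and 2 were URE-delta/+;Tet2+/-. The labels give 4 libraries from normal mice, 1 each of URE-delta/+;Tet2+/+, URE+/+;Tet2-/-, URE+/+;Tet2+/- and URE+/+;Tet2+/+. The URE is the upstream regulatory element of Spi1, the gene of the myeloid transcription factor PU.1, and Tet2 encodes an enzyme that oxidises methylated cytosine in DNA. Ages are not given in the labels beyond a match between mutants and controls. The AML libraries and the normal URE-delta/+;Tet2+/+ and wild-type libraries were run in lanes 6 and 7, and the normal Tet2 mutants in lane 8.

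The values come from a comparison the authors made between leukemic and non-leukemic cells of low PU.1, as a log2 fold change per region with an adjusted p-value. The sources used here do not say which libraries formed each side. No normal library carried both lesions, so the effects of leukemia and of the combined genotype cannot be told apart. No value per library was used, and the variation among mice cannot be read. Only the authors' adjusted p stands behind a call. A region is said to have risen or fallen at an adjusted p under 0.001, the threshold that defines the authors' own more and less accessible sets. In bulk libraries, fewer cells with an open region and less opening per cell cannot be told apart. As a check of the labelled fraction, 5 of 6 stem and progenitor markers and 5 of 6 myeloid markers had a region at a gene end, with highest log2 abundances per gene of 1.64 to 4.19 and 1.18 to 4.84 per the authors' deposited table. Erg and Csf3r had none. All 5 B-cell, 5 T- and NK-cell and 5 erythroid markers also had one, with -1.85 to 1.41, -2.30 to 1.32 and -1.98 to 1.499, and their part in the results was not tested. Of 5 non-blood genes, Alb, Ins2 and Myh6 had none, while Neurod1 and Cdh1 had 1 each, at -1.05 and -1.32. Those 2 values lie inside the ranges of the B-cell, T- and NK-cell and erythroid markers.

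MicroRNAs are short RNAs cut from a hairpin precursor. The mature strand guides a silencing complex to messenger RNAs, and its bases 2 to 8, the seed, carry most of the pairing with the target. A few microRNAs are known to steer blood formation. MiR-223 is made in myeloid cells under PU.1 and C/EBP control, miR-146 restrains signalling to NF-kB, and miR-125, miR-126 and miR-196 act in stem and progenitor cells. MicroRNA genes often lie inside protein-coding host genes, and the site that starts their transcription can be far from the hairpin.

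The sequences that the results turn on are given here from RefSeq, build GRCm38.p6, 5′ to 3′ with the seed in capitals. RefSeq gave a mature sequence for 658 of the 721 microRNA genes. The following come from genes with a region that rose or fell and show the microRNAs of the strongest or best-known such loci.
miR-146b-5p: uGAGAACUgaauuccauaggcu
miR-139-5p: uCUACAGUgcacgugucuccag
miR-138-5p: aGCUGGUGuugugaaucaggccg
miR-345-5p: gCUGACCCcuaguccagugcuu
miR-7088-5p: gCAAGUGGuggugaggaggggaaac
miR-33-5p: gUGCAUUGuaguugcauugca

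The next set holds blood microRNAs whose regions did not pass the threshold, or a partner that shares a seed with another locus.
miR-146a-5p: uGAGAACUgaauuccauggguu
miR-223-3p: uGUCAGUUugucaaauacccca
miR-142a-3p: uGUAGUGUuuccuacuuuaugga
miR-155-5p: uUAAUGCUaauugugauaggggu
miR-126a-3p: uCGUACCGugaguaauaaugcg
miR-196a-5p: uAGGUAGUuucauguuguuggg
miR-196b-5p: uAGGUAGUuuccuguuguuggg
miR-10a-5p: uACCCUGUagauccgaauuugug
miR-10b-5p: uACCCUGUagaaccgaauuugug
miR-130a-3p: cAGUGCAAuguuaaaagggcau
miR-130b-3p: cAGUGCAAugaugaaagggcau

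Across the 1157 regions at microRNA genes, 31 rose and 9 fell in leukemic cells per the authors' deposited table. Gains made up 2.68% of them, where 1.24% of all regions rose. Losses made up 0.778%, where 1.22% of all regions fell. The median log2 fold change was 0.30 at microRNA genes (quartiles -0.33 and 0.80) and 0.02 over all regions (quartiles -0.71 and 0.60). At an adjusted p under 0.05, 162 regions (14.0%) had a positive log2 fold change and 67 (5.79%) a negative one, beside 7.98% and 9.21% of all regions. No test of the whole list was made, since neighbouring regions and shared libraries make regions no independent samples.

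Regions at microRNA genes also had a higher abundance than regions in general, and calls lay mostly at high abundance. Their median deposited log2 abundance was -0.12 and that of all regions -1.17, and their median widths were 381 and 334 bp. Of the 5 equal classes of abundance over all regions, the highest held 454 of the 1157. In that class 3.96% of the regions at microRNA genes rose, beside 2.58% of all its regions, and 1.98% fell, beside 5.26%. In the next class below, 4.56% rose at microRNA genes, beside 2.61% of all its regions, and 0 of 263 fell, beside 0.808%. All 9 losses lay in the highest class, while the gains were 18 in the highest, 12 in the next and 1 in the middle one. The part of abundance in the difference was not tested beyond these classes.

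**Figure D1:**
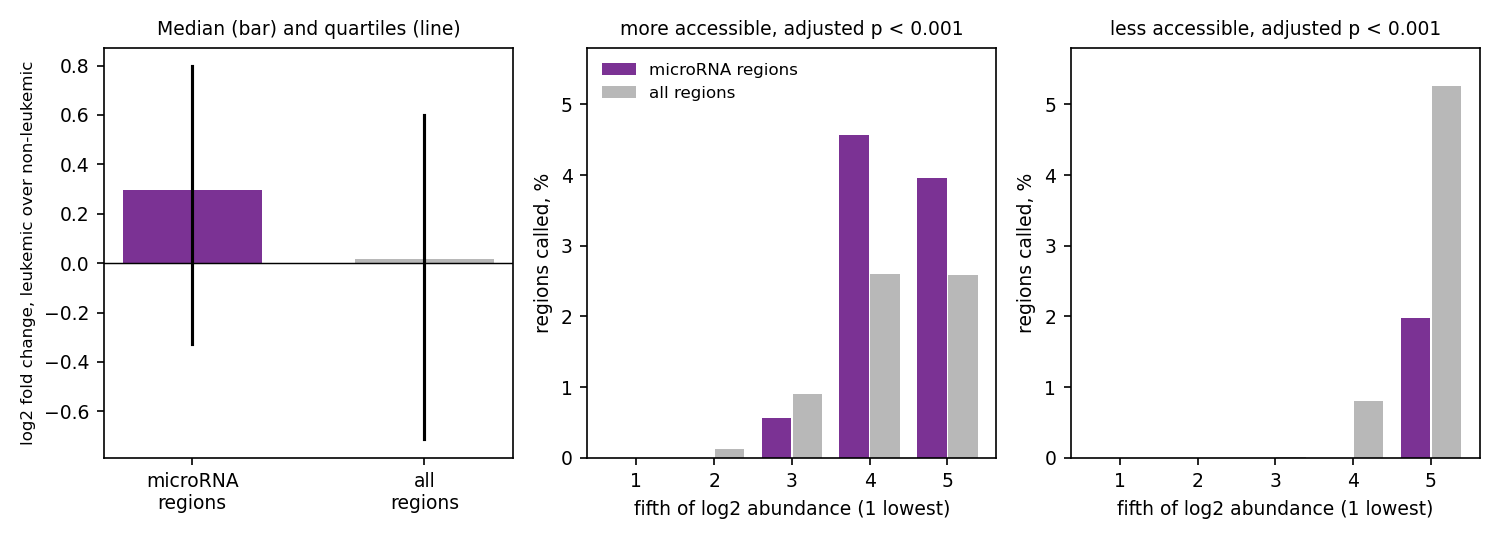
Left, the median log2 fold change (bar) with quartiles (line) of the 1157 regions at microRNA genes and of all 160978 regions. Middle and right, the percentage of regions that rose or fell at an adjusted p under 0.001 in each of 5 classes of log2 abundance; in the highest class 3.96% of the regions at microRNA genes and 2.58% of all regions rose, and 1.98% and 5.26% fell.

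The regions were placed by protein-coding genes. Ends of protein-coding genes, taken as within 1 kb, held 22.9% of the regions at microRNA genes and 10.2% of all regions. At gene ends the median log2 fold change was 0.33 at microRNA genes and 0.22 over all regions. Inside genes it was 0.30 at microRNA genes and 0.00 over all regions, and between genes it was 0.29 at microRNA genes and -0.03 over all regions. At gene ends 5 regions at microRNA genes rose (1.89%), beside 1.19% of all regions there. Inside genes 17 rose (2.76%), beside 1.34%, and between genes 9 rose (3.25%), beside 1.15%. All 9 losses lay inside genes away from their ends, 1.46% of the regions at microRNA genes there, beside 1.20% of all regions there. Over all regions, 1.52% fell at gene ends and 1.17% between genes. Of 161 regions that overlapped a hairpin, 3 rose (1.86%), those at Mir138-2, Mir378a and Mir6361, and 1 fell (0.621%), that at Mir33, beside 1.24% and 1.22% of all regions.

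Regions were also placed by strand and distance. Over 999 regions whose nearest hairpin has a strand in RefSeq, 522 were upstream with a median log2 fold change of 0.31, and 477 downstream with a median of 0.28. Gains numbered 12 upstream (2.30%) and 13 downstream (2.73%), beside 1.24% of all regions. Losses numbered 7 upstream (1.34%) and 2 downstream (0.419%), beside 1.22% of all regions, and the difference between the sides was not tested. Regions centred outside the hairpin but within 500 bp stood at a median log2 fold change of 0.23 and those 4000 to 5000 bp away 0.25. At the edge of the rule, the last members were at Mir1960, Mir7034 and Mir21c, with log2 fold changes of -0.75, 0.79 and -1.03 per the authors' deposited table. The nearest regions left out were at Mir6986, Mir6996 and Mir7215, with 0.35, 0.24 and 1.19 per the authors' deposited table.

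**Figure D2:**
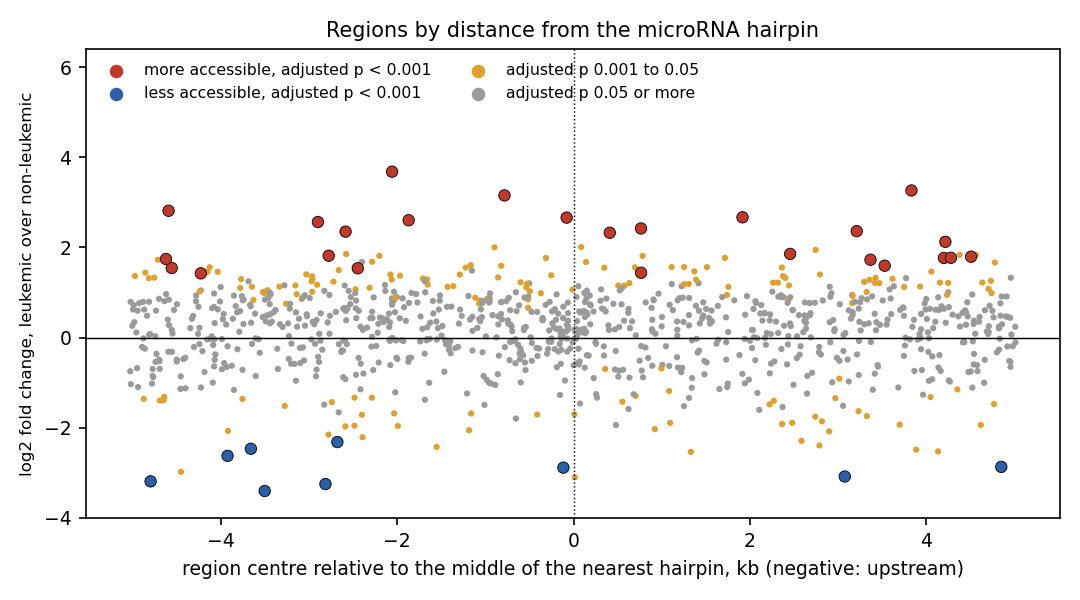
Log2 fold change (vertical axis) of 999 regions against the distance in kb of the region's centre from the middle of the nearest microRNA hairpin (negative is upstream), coloured by the authors' adjusted p. Of the gains, 12 lie upstream (2.30% of the regions there) and 13 downstream (2.73%), beside 1.24% of all regions. Of the losses 7 lie upstream (1.34%) and 2 downstream (0.419%), beside 1.22% of all regions.

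The region that rose most lay at Mir7088, beside the genes Rnf123 and Mst1. It spans chr9:108078485-108080478, and its log2 fold change was 3.68 (adjusted p = 4.02e-06) per the authors' deposited table, at a log2 abundance of 2.01. The same region overlaps the RefSeq promoter windows of Rnf123, a ubiquitin ligase gene, and of Mst1, the gene of macrophage-stimulating protein. A neighbouring region at Mir7088 stood at 0.83 (adjusted p = 0.195) per the authors' deposited table. Accessibility of the microRNA gene and of these promoters cannot be told apart here.

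Promoter windows under regions that rose were searched for motifs, and the 2 that held a match are shown. Of the 1157 regions, 197 overlapped a RefSeq window of 250 bases before to 50 bases after a gene's start, 260 windows in all. Among regions that rose, those windows belonged to Ecm1, Rnf123, Mst1 and Mcpt8. Each was searched on both strands for GAGGAAG, a PU.1-type core, for TGTGGT, a RUNX-type core, and for TTGCNNAA, a C/EBP-type core, with overlapping matches allowed. Over all 32851 windows, 13.6%, 16.8% and 10.8% held them in that order. The windows of Ecm1 and Rnf123 had 0 matches to any of the 3, and those of Mst1 and Mcpt8 had 2 matches each to TGTGGT and 0 to the others. Capitals mark the matches, on either strand.
Mst1 promoter, chr9:108080186-108080485, plus strand, GRCm38.p6: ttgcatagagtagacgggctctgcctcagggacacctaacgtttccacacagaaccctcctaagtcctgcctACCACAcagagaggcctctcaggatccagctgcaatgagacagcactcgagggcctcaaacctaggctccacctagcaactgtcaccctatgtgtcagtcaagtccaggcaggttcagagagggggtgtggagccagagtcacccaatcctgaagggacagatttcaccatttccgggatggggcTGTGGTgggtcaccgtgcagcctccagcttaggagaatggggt
Mcpt8 promoter, chr14:56085148-56085447, minus strand, GRCm38.p6: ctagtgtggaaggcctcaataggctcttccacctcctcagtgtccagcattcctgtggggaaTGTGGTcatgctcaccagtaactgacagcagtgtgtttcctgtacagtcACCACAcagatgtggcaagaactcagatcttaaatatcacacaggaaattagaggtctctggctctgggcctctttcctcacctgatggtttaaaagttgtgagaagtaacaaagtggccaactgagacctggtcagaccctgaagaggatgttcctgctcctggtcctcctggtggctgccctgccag
Mcpt8 encodes a protease of basophils, and the region over its window, near Mir6949, rose by a log2 value of 1.82 (adjusted p = 5.82e-04) per the authors' deposited table.

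Among microRNAs with a known part in blood, Mir146b had the strongest gain. Its product miR-146b lowers the adaptors Traf6 and Irak1 of the NF-kB pathway. The region at chr19:46341948-46342115, upstream of the hairpin, rose by 3.16 on the log2 scale (adjusted p = 5.73e-06) per the authors' deposited table. A wider region further upstream stood at 0.73 (adjusted p = 0.0534) and one downstream at -0.63 (adjusted p = 0.329) per the authors' deposited table. Of the 3 regions around the gene, 1 rose. The hairpin is shown with both mature strands in capitals, beside that of its partner Mir146, which encodes miR-146a.
Mir146b hairpin, chr19:46342762-46342870, plus strand: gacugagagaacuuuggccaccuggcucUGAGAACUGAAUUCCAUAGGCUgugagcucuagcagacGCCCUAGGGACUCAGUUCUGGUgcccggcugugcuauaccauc
Mir146 hairpin, chr11:43374397-43374461, minus strand: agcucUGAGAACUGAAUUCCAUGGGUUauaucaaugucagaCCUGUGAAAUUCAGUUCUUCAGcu
The 5p strands share the seed GAGAACU and are the same at 20 of 22 positions. Mir146 had 1 region, weakly read at a log2 abundance of -2.55, with a log2 fold change of -0.50 (adjusted p = 0.615) per the authors' deposited table.

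Mir33 was the blood-listed microRNA with a loss. It lies inside Srebf2, the gene of a master factor of sterol synthesis, and miR-33 is known to hold down the cholesterol exporter Abca1. The region over the hairpin, chr15:82197295-82198785, stood at -2.89 (adjusted p = 4.21e-04) per the authors' deposited table, at a log2 abundance of 2.11. The region next to it stood at -2.43 (adjusted p = 0.00906) per the authors' deposited table, short of the threshold. The hairpin, with both mature strands in capitals, is given because this loss lies on it.
Mir33 hairpin, chr15:82198122-82198190, plus strand: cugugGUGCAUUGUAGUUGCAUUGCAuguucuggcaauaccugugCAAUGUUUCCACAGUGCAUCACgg

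Mir378a, which lies inside Ppargc1b and takes part in energy metabolism, had 2 regions that rose. A wide region over the hairpin, chr18:61397600-61401104, stood at 3.10 (adjusted p = 2.29e-05) per the authors' deposited table. A narrower region, chr18:61394891-61395057, stood at 2.22 (adjusted p = 6.24e-04) per the authors' deposited table. The remaining region there stood at 0.13 (adjusted p = 0.835) per the authors' deposited table. With Mir146b these were the 3 gains among the 49 regions of the list of myeloid and inflammatory microRNAs, 6.12% of them. The share was 2.68% over regions at microRNA genes and 1.24% over all regions. On the list 0 fell, beside 1.22% of all regions. The list was chosen with earlier results of these data known, and 2 of its gains lie at Mir378a, so its share tests nothing. That list covers 29 of 34 genes and had a median log2 fold change of 0.35, beside 0.30 over all regions at microRNA genes.

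Mir223, a known PU.1 target, had 4 regions, all with a negative log2 fold change and none that passed the threshold. They stood at -1.13 (adjusted p = 0.0674), -0.14 (adjusted p = 1), -0.58 (adjusted p = 0.284) and -0.50 (adjusted p = 0.505) per the authors' deposited table. Mir223 lies on the X chromosome, where the median log2 fold change was -0.24 over 33 regions at microRNA genes and -0.45 over the other regions. The most strongly read Mir223 region, at a log2 abundance of 3.36, was the one nearest to 0.

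Other microRNAs of mature myeloid cells gave no call at 0.001. Mir142, which is active in nearly all blood cells, had strongly read regions at 0.66 (adjusted p = 0.164) and 0.59 (adjusted p = 0.0669) per the authors' deposited table. Mir155, whose excess drives myeloid proliferation in mice, had 1 region at -1.71 (adjusted p = 0.0189) per the authors' deposited table. Mir21a, a microRNA raised in many tumours, had 4 regions between -0.56 and 0.50, with the lowest adjusted p at 0.103 per the authors' deposited table. Mir22 had log2 fold changes of 0.39, 0.87 and 0.95 per the authors' deposited table, with the last at an adjusted p of 0.0204. The regions of the Mir23a, Mir27a and Mir24-2 cluster lay between -0.16 and 0.94 per the authors' deposited table. On the same myeloid and inflammatory list, a region shared by Mir143 and Mir145a stood at 1.64 (adjusted p = 0.00629) per the authors' deposited table.

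**Figure D3:**
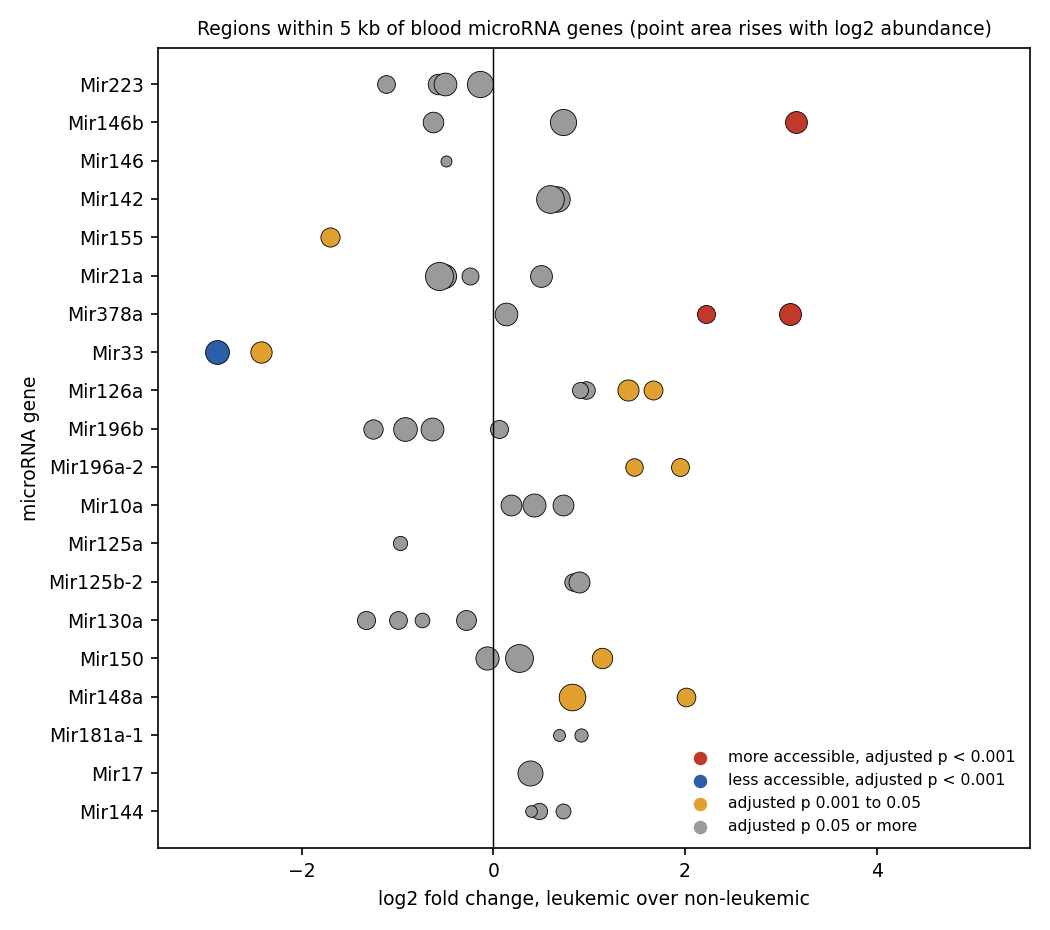
Log2 fold change (horizontal axis) of every region within 5 kb of 20 blood microRNA genes (vertical axis), coloured by the authors' adjusted p, with point area rising with log2 abundance. Mir146b and Mir378a carry the gains, up to 3.16 and 3.10, Mir33 the loss at -2.89, and all 4 Mir223 points lie below 0.

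On the list of stem and progenitor microRNAs, 20 of 28 genes had a region within 5 kb, and 1 of 35 regions fell, that at Mir33, and 0 rose, near the 1.22% and 1.24% of all regions. The median log2 fold change was 0.33, and 0.46 over the 30 regions outside the low stretch of chromosome 2 described below. Mir125b-1, Mir100 and Mir99a had no region within 5 kb. Mir126a, which lies inside Egfl7 and keeps stem cells quiet, had 4 positive regions. Those with the lowest adjusted p, inside the neighbouring gene Agpat2, stood at 1.40 (adjusted p = 0.00357) and 1.67 (adjusted p = 0.00158) per the authors' deposited table. Mir125b-2 had 0.83 and 0.89, and the only region at Mir125a had -0.97 (adjusted p = 0.57) per the authors' deposited table. Mir193a, with 1.83 (adjusted p = 0.00178), and Mir193b, with 1.31 (adjusted p = 0.00988), also missed the threshold per the authors' deposited table.

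No region at a microRNA of the Hox clusters passed 0.001, and differences between these genes were not tested. Mir196a-2, in the Hoxc cluster, had regions at 1.95 (adjusted p = 0.00152) and 1.46 (adjusted p = 0.0166) per the authors' deposited table. Mir196b, in the Hoxa cluster, had regions at -0.92, 0.06, -1.26 and -0.64, with the lowest adjusted p at 0.0732 per the authors' deposited table. Mir196a-1, in the Hoxb cluster, had regions at 0.36 and 0.30 per the authors' deposited table. Mir10a, also in the Hoxb cluster, had 3 regions from 0.19 to 0.73, and Mir10b, in the Hoxd cluster, had 1 at -1.38 (adjusted p = 0.13) per the authors' deposited table. The miR-10a and miR-10b strands printed above differ at 1 of 23 positions, and those of miR-196a and miR-196b at 1 of 22.

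The list of lymphoid microRNAs had 0 gains and 0 losses in 19 regions at 22 of 28 genes, with a median log2 fold change of 0.14. With 1.24% of all regions up and 1.22% down, a count of 0 in so short a list is near the background. Mir148a came closest, with a region at 2.01 (adjusted p = 0.00118) over its hairpin per the authors' deposited table. The lowest region of the list, at Mir28a, stood at -1.81 (adjusted p = 0.0189) per the authors' deposited table. Mir150, which lowers Myb in lymphocytes, had 4 regions, of which the highest stood at 1.14 (adjusted p = 0.0171) per the authors' deposited table. Mir181a-1, a regulator of T-cell receptor signalling, had weakly read regions at 0.69 and 0.91 per the authors' deposited table, and Mir181a-2 had none within 5 kb. The sort removes lymphoid cells.

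The list of erythroid and megakaryocyte microRNAs also had 0 gains and 0 losses, in 15 regions at 15 of 21 genes, beside the same 1.24% and 1.22% of all regions. Mir144 and Mir451a, the pair made in red cell precursors, share 3 regions at 0.47, 0.73 and 0.39 per the authors' deposited table, with log2 abundances of -1.03, -1.49 and -2.38. Mir32 had the lowest adjusted p of this list, 0.00352, at a log2 fold change of -1.89 per the authors' deposited table. A region shared by Mir183 and Mir96 followed, at 1.32 (adjusted p = 0.00563) per the authors' deposited table. The median log2 fold change of this list was 0.59. Of its 15 regions 12 were positive (80%), beside 62.4% of all regions at microRNA genes. The let-7 family, whose processing Lin28 blocks in fetal cells, had 0 of 9 regions with an adjusted p under 0.05, where 7.98% of all regions were higher and 9.21% lower, and a median log2 fold change of 0.01. With so few regions, such counts of 0 are near the background. The list of microRNAs of other tissues, such as those of brain, muscle, liver and epithelium, had 0 of 32 regions called at 0.001, also near the background of 1.24% up and 1.22% down. Its median log2 fold change was 0.39, and its median log2 abundance was -1.01, the lowest of the 6 lists. The lowest adjusted p there was 0.00115, at a region of 1.13 shared by Mir192 and Mir194-2, per the authors' deposited table.

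Outside the lists, gains also lay at microRNAs inside genes or near them. Mir139, inside the phosphodiesterase gene Pde2a, had 1 region at 2.36 (adjusted p = 8.18e-05) per the authors' deposited table. Mir138-2 had 1 region over its hairpin at 2.66 (adjusted p = 8.18e-05), within Nup93, a nuclear pore gene, per the authors' deposited table. Mir345 had a strongly read region at 1.74 (adjusted p = 5.11e-05), within the transporter gene Slc25a29, per the authors' deposited table. Mir6977 had a region at 3.27 (adjusted p = 5.88e-06) within the phosphatase gene Ptprs per the authors' deposited table.

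Some microRNA genes had several regions that rose together. Mir6976, at Srf, the gene of serum response factor, had 4 regions, of which 3 rose, at 1.80, 1.44 and 1.43 per the authors' deposited table. Mir7014, at Ecm1, had 3 regions, at 2.67, 1.56 and 2.81, of which the first and last rose, per the authors' deposited table. Mir6516 had 4 regions, of which 2 rose, at 2.42 and 2.13, per the authors' deposited table. Besides these and Mir378a, each gain was the only one at its gene. Below, a protein-coding gene named with a microRNA holds the centre of the region, and the microRNA itself may lie outside it. Among those inside protein-coding genes, Mir12184 in Gpld1 stood at 2.60 (adjusted p = 9.88e-05), and the region shared by Mir6921 and Mir6922, in Srebf1, a regulator of lipid synthesis, at 2.57 (adjusted p = 6.70e-05) per the authors' deposited table. Mir1192 stood at 2.06 (adjusted p = 3.09e-04) in Klf9, a zinc finger factor gene, Mir717 at 1.86 (adjusted p = 9.72e-04) in Gpc3 and Mir5616 at 1.77 (adjusted p = 4.21e-04) in Ctnnbip1, the gene of an inhibitor of beta-catenin, per the authors' deposited table. The regions in Pdxk near Mir6410, in Plppr3 near Mir6910 and in Mtarc2 near Mir1981 stood at 1.73 (adjusted p = 5.80e-04), 1.60 (adjusted p = 8.59e-04) and 1.54 (adjusted p = 6.40e-04) per the authors' deposited table. The region at Mir686 stood at 2.33 (adjusted p = 1.73e-04), that at Mir7040 at 1.97 (adjusted p = 2.38e-04) and that at Mir6361, over its hairpin, at 2.04 (adjusted p = 4.84e-04) per the authors' deposited table. Mir6417, Mir7652, Mir6955 and Mir7079 stood at 2.35 (adjusted p = 1.43e-04), 2.20 (adjusted p = 3.08e-04), 1.77 (adjusted p = 2.05e-05) and 1.55 (adjusted p = 6.83e-04) per the authors' deposited table. At some genes with a gain another region lay nearest the hairpin and did not pass the threshold. It stood at -0.07 at Mir6955, 0.36 at Mir6921 and Mir6922, 0.46 at Mir345 and 0.89 at Mir6516 per the authors' deposited table. At Mir7652 and Mir7079 it stood at 1.20 and 1.47 per the authors' deposited table. The Mir6949 region is given above. Gains as a whole ran from 1.43 to 3.68 on the log2 scale, with a median of 2.13.

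Losses ran from -3.40 to -2.32, with a median of -2.89. The lowest was a region inside Fam110a, near Mir1953, at -3.40 (adjusted p = 9.24e-06) per the authors' deposited table. The genes named for the other losses likewise hold the centre of the region, and the microRNA may lie outside them. Mir6386, inside the interferon-induced gene Plscr1, followed at -3.25 (adjusted p = 3.66e-05) per the authors' deposited table. Mir7061, inside Plekha1, stood at -3.19 (adjusted p = 3.12e-05) per the authors' deposited table. Mir1954, inside Eng, the gene of the TGF-beta co-receptor endoglin, stood at -3.08 (adjusted p = 1.07e-04) per the authors' deposited table. Besides Mir33, Mir8098 inside Wdfy2 stood at -2.87 (adjusted p = 6.94e-04) and Mir3075 inside Zmiz1, the gene of a transcriptional coregulator, at -2.62 (adjusted p = 1.05e-04) per the authors' deposited table. Mir7020 inside Aldh4a1 and Mir7001 inside Cd82, a tetraspanin gene, stood at -2.47 (adjusted p = 9.84e-04) and -2.32 (adjusted p = 5.88e-04) per the authors' deposited table. At Mir3075, Mir7020 and Mir6386 the region nearest the hairpin stood at 0.14, 0.79 and 0.72, and at Mir8098 and Mir7001 at -1.25 and -0.71, per the authors' deposited table. None of these 5 passed the threshold.

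At microRNA genes on none of the lists and with no call, the region of largest size between an adjusted p of 0.001 and 0.05 was taken per gene. At the 10 genes where it was largest, that region was negative. This choice leaves out genes with a region past 0.001, where there were 31 gains and 9 losses. Under 0.05 in all, 162 regions at microRNA genes were positive and 67 negative, so the sign of these 10 does not describe that set. Among listed genes, a region shared by Mir141 and Mir200c stood at -2.15 (adjusted p = 0.00703) per the authors' deposited table. Mir6541, inside Wdfy2 as is the region near Mir8098, stood at -3.10 (adjusted p = 0.00118) per the authors' deposited table, at a region centred on its hairpin. Mir770, in the imprinted Dlk1-Dio3 domain, stood at -2.98 (adjusted p = 0.00565) at a low abundance per the authors' deposited table. Mir763, inside Hmga2, the gene of a fetal chromatin protein, stood at -2.54, and Mir326, inside Arrb1, at -2.21 per the authors' deposited table. The rest, at Mir1941, Mir3970, Mir760, Mir6989, Mir8113 and Mir7681, lay between -2.53 and -2.06 per the authors' deposited table.

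Regions of the same microRNA gene could point in different directions. Of 388 microRNA genes with 2 or more regions, 153 had only positive log2 fold changes, 58 only negative ones and 177 both. The median span between the highest and lowest region of a gene was 0.91 on the log2 scale. Of 721 microRNA genes with a region, 27 had one that rose and 9 had one that fell, with 0 having both. With so few genes called, that count of 0 is little to read. By number, 8 of 260 genes numbered under 1000 and 28 of 461 numbered 1000 or more had a region that rose or fell. Over all 721 genes these were the 27 and 9 given above, and the difference by number was not tested.

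MicroRNA genes that share a seed were compared by locus. Among 938 seeds of microRNA genes with regions, 94 stood at 2 or more separate loci. Of those, 9 had a region that rose or fell, and 0 had one at 2 loci. With so few seeds called, that count of 0 is little to read. In the miR-130 family, whose seed is AGUGCAA, the 4 regions at Mir130a, in the low stretch of chromosome 2 described below, lay between -1.33 and -0.29. The 2 at Mir130b stood at 0.25 and 1.40, those at Mir130c between 0.09 and 1.33, and that at Mir301 at 0.56 per the authors' deposited table. In the miR-17 family, with the seed AAAGUGC, the region shared by Mir17 and Mir20a stood at 0.38 and that shared by Mir106b and Mir93 at 0.25. On the X chromosome, the 2 at Mir106a stood at -1.33 and -1.14 and that at Mir6383 at -0.61 per the authors' deposited table. In the miR-29 family, 5 regions lay between -0.15 and 0.98 per the authors' deposited table. Regions of a family share libraries, and the differences between loci were not tested.

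**Figure D4:**
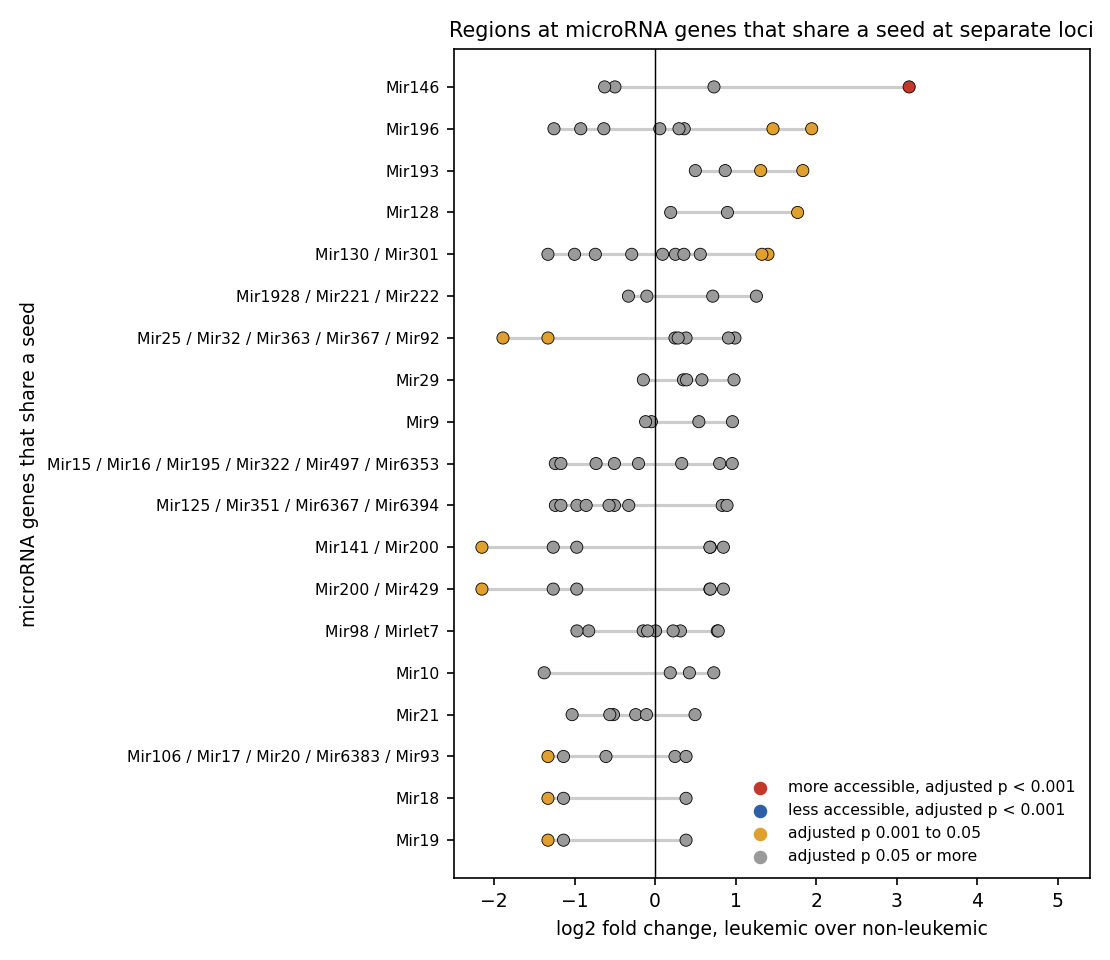
Log2 fold change (horizontal axis) of regions at 19 groups of microRNA genes that share a seed at separate loci and hold 2 or more listed genes (vertical axis, named by gene number), coloured by the authors' adjusted p, with a grey line from lowest to highest. Only the miR-146 group holds a region past 0.001, at 3.16.

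Large microRNA clusters were described by their regions. Of 13 loci with 4 or more microRNA genes, 8 had a region and 0 had one that rose or fell, beside 35 of all 618 loci with a region. The locus of 71 microRNA genes from Mir466m to Mir669h on chromosome 2 had 0 regions. In the Dlk1-Dio3 domain on chromosome 12, an imprinted region, the locus of 16 genes from Mir770 to Mir136 had 4 regions between -2.98 and -0.36, all negative, and the locus of 39 genes from Mir379 to Mir3072 had 1, at -1.23, per the authors' deposited table. The Mir290a to Mir295 cluster, active in embryonic stem cells, had 2 regions at 1.07 and 1.19, with the lowest adjusted p at 0.0175 per the authors' deposited table. The cluster from Mir450b to Mir322 on the X chromosome had 4 regions between -1.54 and -0.51 per the authors' deposited table.

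By chromosome, the median log2 fold change at microRNA genes exceeded that of the other regions on 19 of 20 chromosomes, chromosome 7 being the exception. Chromosome 2 carries a long stretch of lowered accessibility, here bounded by its bins of 5 Mb at 55 to 160 Mb. In it, 36 regions at microRNA genes lay at a median log2 fold change of -0.58 (quartiles -1.01 and -0.04), and 6904 other regions one of -0.98 (quartiles -1.62 and -0.43). The stretch holds 2 of the 9 losses, those at Mir1953 and Mir7001, and 0 of the gains. Of its other 6904 regions 371 fell and 13 rose, so 2 of 36 is near the share around them. It also holds Mir130a, Mir10b, Mir147, with a region at -0.96, and Mir499, whose 4 regions lay between -1.11 and 0.34 per the authors' deposited table. Whether the stretch or the microRNA loci set those values was not tested. Mir1954 and Mir126a lie on chromosome 2 outside it, where 34 regions at microRNA genes lay at a median of 0.42 and the others 0.10.

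**Figure D5:**
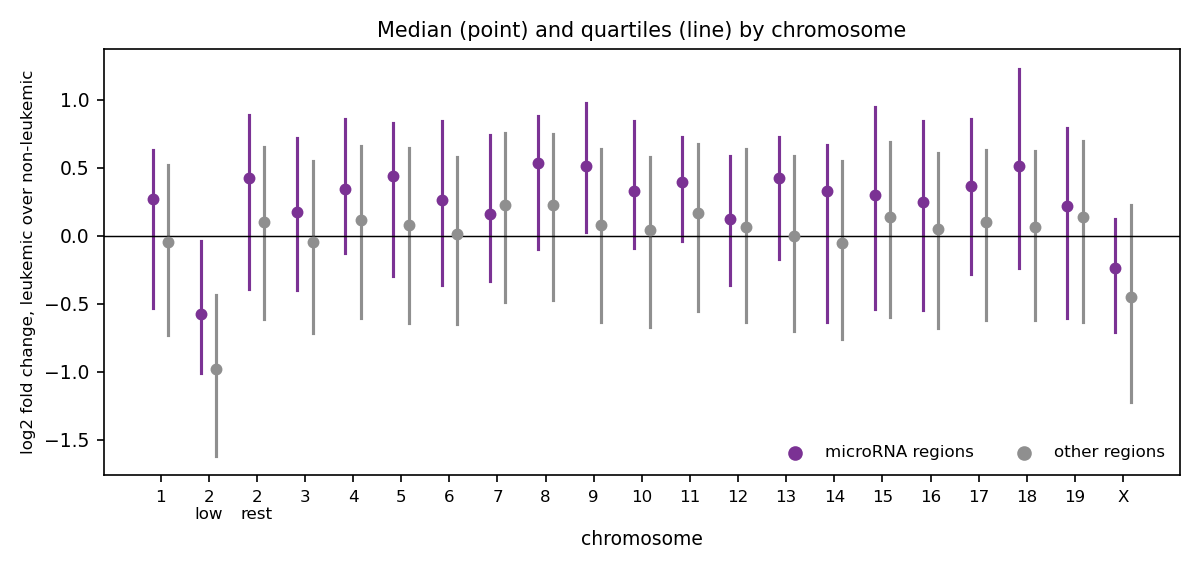
Median log2 fold change (points) with quartiles (lines) of regions at microRNA genes and of other regions on each chromosome, with chromosome 2 split into its low stretch, 55 to 160 Mb, and the rest. Regions at microRNA genes lie above the others on 19 of 20 chromosomes, and both sets are negative in the stretch, at -0.58 and -0.98, and on X.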

How the data were processed

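The labels give 8 ATAC-seq libraries of sorted mouse marrow cells. Per the submitters' processing notes, the build is GRCm38 (mm10), with Bowtie2 2.4.1, SAMtools 1.10.2 and Genrich 0.6 listed as tools. The program csaw is named in the title of the deposited table; the sources used here give no settings, normalization or shift for the transposase's cut. The authors deposited, per region, a log2 fold change of leukemic over non-leukemic cells, a log2 average abundance, a p-value and an adjusted p-value. The reading of the abundance column rests on its position and range. The adjusted p-value equals a Benjamini-Hochberg adjustment over all 160978 regions to within 2.39e-15. The authors' sets of 2002, 1961 and 19123 regions equal an adjusted p under 0.001 with the matching sign, or over 0.9.

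From these, distances were computed to gene extents of RefSeq GRCm38.p6 (49997 genes, 21900 protein coding) with Python 3.11.15 and pandas 2.3.3; the distance and adjustment steps were tested on simulated data. Region coordinates stand as the authors wrote them, and nothing used here says if their starts are 0- or 1-based. Region sequences and motifs within regions were not analysed here, since no genome was used.

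Values are given for every microRNA gene with a region past 0.001 and for part of the microRNAs of 6 lists. They are also given for the 10 genes outside these lists and calls with the largest change at an adjusted p under 0.05. Some list members with an adjusted p under 0.05 are not given singly. Which further list members to give singly, and the large clusters, were picked after their values were seen. The microRNAs and lists were chosen with earlier results of these data known. Depth per library is unknown, so no interval could be set. The alternatives were other thresholds of adjusted p, other distances, a filter on abundance, and leaving out chromosome 2, gene ends or the low stretch of chromosome 2, the last chosen after the data were seen.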

Additional observations from a re-analysis of the deposited data

How the results depend on the processing

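With an adjusted p under 0.05 in place of 0.001, 162 regions at microRNA genes (14.0%) had a positive and 67 (5.79%) a negative log2 fold change. Over all regions the shares were 7.98% and 9.21%. With 0.0001 there were 13 gains (1.12%) and 3 losses (0.259%), and the share over all regions was not counted there. Within 1 kb of the microRNA gene there were 7 gains (2.50%) and 1 loss (0.357%) in 280 regions. Within 10 kb there were 40 gains (1.84%) and 21 losses (0.964%) in 2179 regions. Over all regions 1.24% rose and 1.22% fell, so the shares at 10 kb lay nearer to these than those at 5 kb, 2.68% and 0.778%. The counts of gains were 26 to 31 and those of losses 6 to 9 above the median abundance (30 gains in 814 regions), without chromosome 2 (6 losses), without ends of protein-coding genes (26 gains) and without the low stretch of chromosome 2. The median log2 fold change stayed between 0.21 and 0.35 under the 6 alternatives that apply to it. No paired analysis was possible because the comparison comes as 1 value per region, and for the same reason leaving out a library could not be done. Unknown depth limits every fold.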

Other observations

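Above the median abundance of all regions, 3.69% of the 814 regions at microRNA genes rose and 1.11% fell, beside 2.32% and 2.43% of all regions above it. Without ends of protein-coding genes the shares were 2.91% and 1.01% at microRNA genes, beside 1.25% and 1.18% of all such regions. Without chromosome 2 they were 2.85% and 0.552%, beside 1.30% and 1.03%. In the authors' unchanged set, regions at microRNA genes numbered 134 (11.6%), beside 11.9% of all regions. Members of the 5 blood and let-7 lists together, 124 regions at 92 genes, held 3 gains (2.42%) and 1 loss (0.806%). The 1033 regions on no such list held 28 gains (2.71%) and 8 losses (0.774%), shares close to those of the lists. Over all regions 1.24% rose and 1.22% fell. The median log2 fold change was 0.34 on the lists and 0.30 off them.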
